A study of Caenorhabditis elegans with 6 samples.

Results

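The genes described here are 9 genes of DNA mismatch repair and excision repair, measured by RNA-seq in wild-type *Caenorhabditis elegans* embryos whose mothers were fed bacteria that silence the DNA primase gene *pri-1*. They were chosen by name, as the rows of the deposited table for *msh-2*, *msh-6*, *mlh-1*, *exo-1*, *xpc-1*, *csb-1*, *xpa-1*, *ercc-1* and *ung-1*. All 9 were found among the 19933 genes of the table, and all 9 had at least 0.5 CPM (counts of the gene per 1000000 counts of the library) in at least 3 libraries, the level asked of a gene for testing. Both groups were strain N2 with no mutation or transgene. In the *pri-1* RNAi group, hermaphrodites ate bacteria making double-stranded RNA against *pri-1*, and in the EV group they ate bacteria with the empty RNAi vector. Feeding began at the first larval stage and ran for 96 h at 20 °C, after which the eggs they had laid were collected and frozen. Each group had 3 libraries of total RNA, each from a population of whole eggs. According to the study, *pri-1* RNAi embryos stop before morphogenesis and do not hatch, so the groups can differ in the tissues they hold as well as in the state of their cells. In such bulk samples, fewer cells of a type and less RNA per cell cannot be told apart. The labels do not say how the replicates were separated, and p-values measure the spread between these libraries, which may be technical in part.

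Mismatch repair removes bases that DNA polymerase paired wrongly. MSH-2 and MSH-6 form the dimer that finds a mismatch, MLH-1 works with PMS-2 in the complex that is recruited next, and the exonuclease EXO-1 digests the strand that carries the error. Nucleotide excision repair cuts out an oligonucleotide around bulky damage such as ultraviolet photoproducts. The damage is found throughout the genome by XPC-1, or by CSB-1 and CSA-1 where it has stopped an RNA polymerase, and from there both branches use XPA-1, which holds the repair complex together, and the nuclease of ERCC-1 and XPF-1, which cuts on the 5′ side. Base excision repair removes small lesions, and UNG-1 is the glycosylase that takes uracil out of DNA. In *C. elegans*, much of the RNA for genome maintenance is laid down by the mother and serves the fast cell cycles of the early embryo.

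The genes lie on chromosomes I, III, IV and X. In WBcel235 coordinates of the Ensembl release 115 annotation, *msh-6* (WBGene00003422, I: 3449326 to 3462174, plus strand), *msh-2* (WBGene00003418, I: 3694296 to 3697551, minus), *xpa-1* (WBGene00006963, I: 7159714 to 7160917, plus) and *ercc-1* (WBGene00008665, I: 10030174 to 10046760, plus) lie on chromosome I. On chromosome III are *ung-1* (WBGene00013241, 11971467 to 11974096, minus), *exo-1* (WBGene00009731, 13423514 to 13426204, plus) and *mlh-1* (WBGene00003373, 13509301 to 13514570, minus). *xpc-1* (WBGene00022296, IV: 1993089 to 2009027, plus) and *csb-1* (WBGene00000803, X: 15861294 to 15865918, minus) are each alone on their chromosomes. The genes carry from 0.902 kb of exon in *xpa-1* to 4.497 kb in *xpc-1*. Only *exo-1* and *ercc-1* share exon sequence with another gene on their strand, 21 bases with *myo-6* and 5 bases with *nubp-1*.

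The libraries differed in ways that reach these genes. Low values of each library mostly lay on a ladder of equal steps. The total of a library came to 122749527 to 162064691 of these steps (129242449, 162064691 and 154482490 in *pri-1* RNAi, 122749527, 127485019 and 153287049 in EV). Even multiples of the step were more frequent than odd ones, at 55.3% to 68.7% of the low values on the ladder, so that a step is not taken as an independent fragment, and no count test was run. A floor of 3 steps was at most 0.0244 CPM, far under the lowest value of any of the 9 genes (1.42 CPM). EV replicate 3 was the lowest of the EV libraries in 70.6% of all tested genes, and trimmed-mean factors had a range from 0.67 in EV replicate 3 to 1.2996 in EV replicate 2, with *pri-1* RNAi libraries between 0.93 and 1.15. The RNAi target *pri-1* had 28.6, 28.7 and 24.3 CPM in *pri-1* RNAi embryos, against 41.2, 47.2 and 26.9 CPM in EV embryos. Its log2 fold change of -0.46 (SE 0.29) did not pass the test (adjusted p = 0.285 from limma), and EV replicate 3 lay within the *pri-1* RNAi values.

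Of the 9 genes, 1 passed the test, with a higher level in *pri-1* RNAi embryos, and 0 passed with a lower level. The test was limma on log2(CPM + 0.5), with p-values adjusted by Benjamini-Hochberg over all 14801 tested genes and a threshold of 0.05. Of all tested genes 17.3% were called higher and 9.94% lower, 27.3% in all, so that 1 of 9 is no more than the background. With quantile normalization the split of all genes was 2473 higher and 2552 lower, against 2564 higher and 1471 lower as tested. At an unadjusted p-value under 0.05 there were 3 of the 9 genes, where 39.5% of all tested genes reached it. Fold changes are given as differences of log2(CPM + 0.5), where the added 0.5 makes the change of a low gene look smaller. The gene that rose was *csb-1*. The median log2 fold change of the 9 was 0.43, and 7 of them were above 0, beside a median of -0.01 and 49.7% above 0 for all tested genes. Some signs changed with an EV library left out. Without EV replicate 3, *msh-6* (-0.22) and *exo-1* (-0.16) were below 0, and the median of all tested genes was -0.23. Without EV replicate 2, *xpc-1* was above 0 (0.37) and *mlh-1* below it (-0.035), and that median was 0.20.

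**Figure D1:**
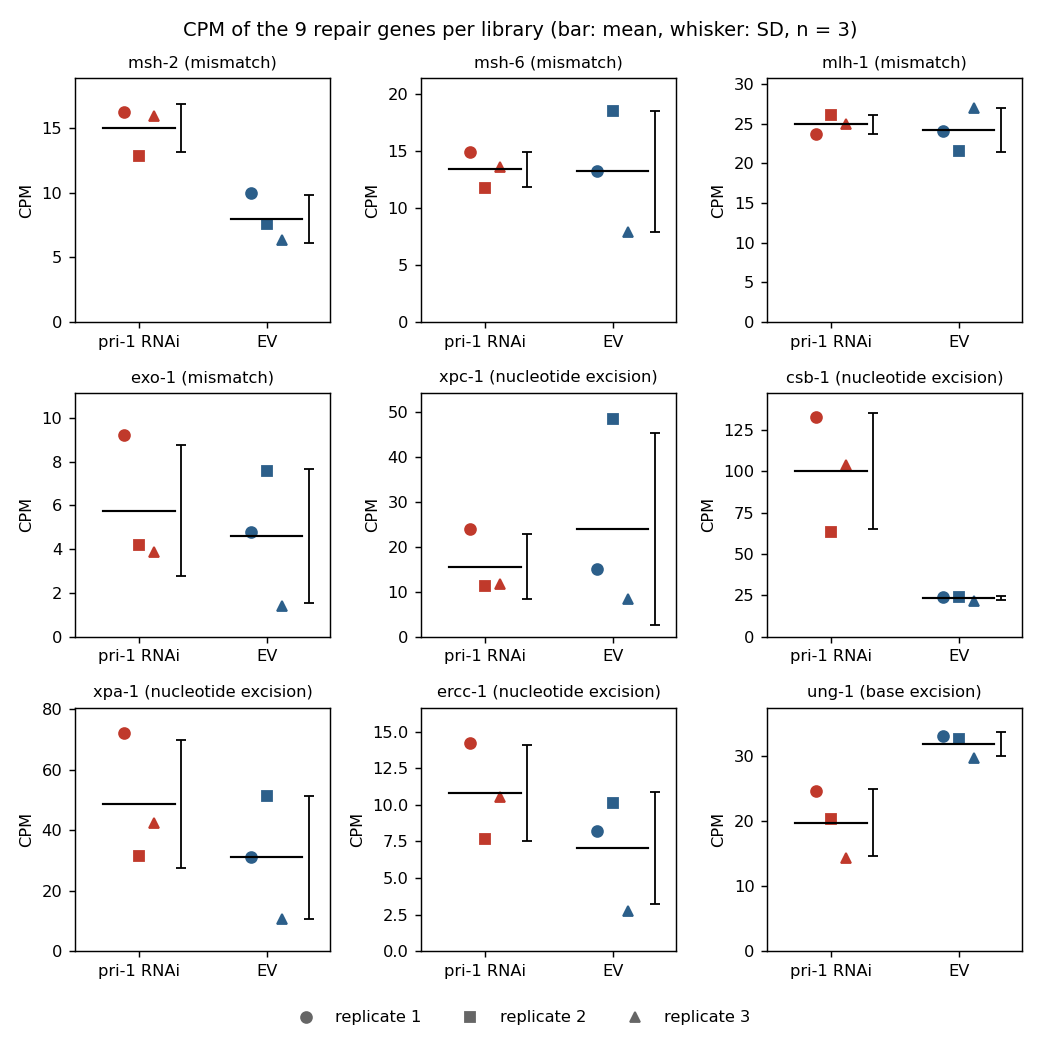
CPM of each of the 9 genes in the 3 *pri-1* RNAi libraries (left, red) and the 3 EV libraries (right, blue), 1 panel per gene with its own axis starting at 0. Symbols give the replicate number, bars the mean and whiskers the SD. *csb-1* and *msh-2* lay higher and *ung-1* lower in every *pri-1* RNAi library than in any EV library, and the other 6 genes overlapped.

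*csb-1*, the gene of the factor that starts transcription-coupled repair at a stalled RNA polymerase, had 133, 63.5 and 103.9 CPM after *pri-1* RNAi, against 24.0, 24.0 and 21.9 CPM in the EV libraries. The lowest *pri-1* RNAi library was well above the highest EV library, and the EV libraries were within 1.096-fold of each other. The means were 100.1 ± 34.9 CPM in *pri-1* RNAi and 23.3 ± 1.21 CPM in EV embryos (SD, n = 3 each), a ratio of 4.30. The log2 fold change was 2.02 (SE 0.31, 95% interval 1.31 to 2.73, adjusted p = 0.0033 from limma), higher than that of 94.4% of all tested genes. The exact two-sided permutation test gave p = 0.1, the smallest that 3 libraries against 3 allow. *csb-1* passed the threshold in all 14 other fits that were run, with log2 fold changes from 1.78 to 2.31. The even level in EV belongs to the deposited CPM. Scaled by trimmed means, *csb-1* had 115.2, 68.0 and 103 in *pri-1* RNAi and 22.6, 18.5 and 32.7 in EV libraries, and the groups stayed apart.

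The partner of *csb-1* in this branch, *csa-1*, had 13.2, 6.29 and 5.85 CPM in *pri-1* RNAi embryos, against 4.51, 9.56 and 0.737 CPM in EV embryos. The groups overlapped, and EV libraries differed 13-fold among themselves. A log2 fold change of 1.08 (SE 0.75) did not pass (adjusted p = 0.331 from limma), and its interval, -0.67 to 2.83, includes the value of *csb-1*. It was 0.24 without EV replicate 3 and 1.75 without EV replicate 2, and it passed at 1.95 with the library number as a block (adjusted p = 0.000135 from limma), a fit that rests on 2 pairs of libraries.

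*xpc-1*, which recognises damage throughout the genome, had 23.8, 11.2 and 11.7 CPM in *pri-1* RNAi embryos, against 15.04, 48.3 and 8.36 CPM in EV embryos. All *pri-1* RNAi values lay inside the EV range, whose top was EV replicate 2. This gave a log2 fold change of -0.32 (SE 0.63, interval -1.79 to 1.16, adjusted p = 0.753 from limma). Its sign rested on that library: without EV replicate 2 the value was 0.37. The ratio of the CPM of *csb-1* to that of *xpc-1* within a library, which no scaling of the library can change, was 5.59, 5.69 and 8.86 in *pri-1* RNAi and 1.595, 0.497 and 2.62 in EV embryos. The groups did not overlap, as in 50.7% of the ratios between any 2 tested genes, so that a ratio without overlap is no more than the background. On the log2 scale the ratio was higher by 2.34 in *pri-1* RNAi embryos (2.67 ± 0.37 in *pri-1* RNAi, 0.33 ± 1.199 in EV, SD, n = 3 each; exact permutation test, p = 0.1, and 0.1 after adjustment over the 3 ratios tested).

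*xpa-1*, the scaffold of the incision complex, had 72.4, 31.7 and 42.4 CPM in *pri-1* RNAi embryos, against 31.3, 51.4 and 10.6 CPM in EV embryos. EV replicate 2 was above *pri-1* RNAi replicates 2 and 3, and EV replicate 3 was the lowest of all. *xpa-1* had a log2 fold change of 0.82 (SE 0.58, interval -0.52 to 2.16, adjusted p = 0.336 from limma), which was 0.20 without EV replicate 3 and 1.31 without EV replicate 2. *ercc-1*, the non-catalytic subunit of the 5′ nuclease, had the same order of libraries within each group as *xpa-1*. It had 14.2, 7.70 and 10.6 CPM in *pri-1* RNAi and 8.20, 10.2 and 2.79 CPM in EV embryos. Its log2 fold change was 0.71 (SE 0.51, interval -0.48 to 1.90, adjusted p = 0.346 from limma), and 0.19 without EV replicate 3. Its partner *xpf-1*, the catalytic subunit, had 20.6, 14.7 and 16.5 CPM in *pri-1* RNAi and 21.8, 27.4 and 16.0 CPM in EV embryos. Its log2 fold change was -0.30 (SE 0.31, adjusted p = 0.522 from limma). The ratio of *ercc-1* to *xpf-1* was 0.691, 0.522 and 0.638 in *pri-1* RNAi and 0.376, 0.371 and 0.175 in EV embryos. It was higher in every *pri-1* RNAi library, by 1.01 on the log2 scale (-0.68 ± 0.19 in *pri-1* RNAi, -1.69 ± 0.55 in EV, SD, n = 3 each). The exact permutation test gave p = 0.1, and 0.1 after adjustment. This lack of overlap is no more than the background, since 50.7% of the ratios between any 2 tested genes did not overlap.

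Of the mismatch repair genes, *msh-2* had 16.2, 12.9 and 16.0 CPM in *pri-1* RNAi embryos, against 9.996, 7.57 and 6.34 CPM in EV embryos. The groups did not overlap, with means of 15.02 ± 1.86 in *pri-1* RNAi and 7.97 ± 1.86 CPM in EV embryos (SD, n = 3 each). The log2 fold change of 0.89 (SE 0.32, interval 0.14 to 1.64) nevertheless missed the threshold (adjusted p = 0.0785 from limma, and p = 0.1 from the exact permutation test). It passed with median centring (1.101, adjusted p = 0.0305), which moved the median log2 fold change of all genes by 0.21, and with quantile normalization (1.02, adjusted p = 0.0326). Its log2 fold change stayed between 0.75 and 1.06 with each library left out. *msh-2* and *ung-1* joined *csb-1* as genes whose groups did not overlap. These were 2 higher and 1 lower of the 9 genes, beside 25.4% higher and 19.8% lower, or 45.2% in all, of the tested genes.

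*msh-6*, the other subunit of the mismatch sensor, had 14.9, 11.8 and 13.6 CPM in *pri-1* RNAi embryos, against 13.2, 18.5 and 7.90 CPM in EV embryos. The *pri-1* RNAi libraries lay in the middle of the EV range. For *msh-6* the log2 fold change was 0.09 (SE 0.38, interval -0.78 to 0.97, adjusted p = 0.882 from limma), and -0.22 without EV replicate 3. The ratio of *msh-6* to *msh-2* CPM was 0.918, 0.918 and 0.852 in *pri-1* RNAi and 1.33, 2.45 and 1.25 in EV embryos. It was close to even over the *pri-1* RNAi libraries and lower there than in every EV library, with a difference of -0.80 on the log2 scale (-0.15 ± 0.06 in *pri-1* RNAi, 0.64 ± 0.52 in EV, SD, n = 3 each). The exact permutation test gave p = 0.1, and 0.1 after adjustment. Here too the lack of overlap is no more than the background of 50.7% of the ratios between any 2 tested genes.

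**Figure D2:**
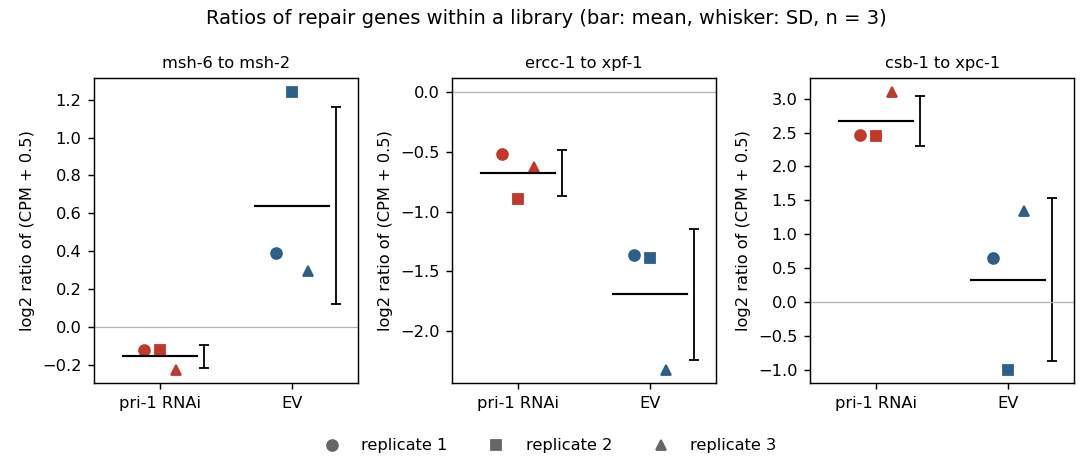
Log2 ratio of CPM + 0.5 of *msh-6* to *msh-2*, *ercc-1* to *xpf-1* and *csb-1* to *xpc-1* in each *pri-1* RNAi library (left, red) and each EV library (right, blue), with the mean (bar) and SD (whisker) of 3 libraries. The differences were -0.80, 1.01 and 2.34, and the groups did not overlap in any of the 3 ratios, as in 50.7% of the ratios between any 2 tested genes.

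*mlh-1*, the common subunit of the MutL complexes, had 23.6, 26.1 and 24.9 CPM in *pri-1* RNAi embryos, against 24.1, 21.5 and 27.0 CPM in EV embryos, and the groups lay over each other. Its log2 fold change of 0.05 (SE 0.25, adjusted p = 0.914 from limma) had the narrowest interval of the 9 genes, -0.53 to 0.62, which leaves room for a change between 0.692-fold and 1.54-fold. Here too the even EV level belongs to the deposited CPM. After trimmed-mean scaling the *pri-1* RNAi libraries had 20.48, 27.96 and 24.8 and the EV libraries 22.7, 16.5 and 40.3, and the log2 fold change was -0.03. Its partner *pms-2* was not analysed here. *exo-1*, the exonuclease gene, had 9.21, 4.19 and 3.88 CPM in *pri-1* RNAi and 4.79, 7.55 and 1.42 CPM in EV embryos. The groups overlapped, and the log2 fold change was 0.43 (SE 0.60, interval -0.96 to 1.81, adjusted p = 0.640 from limma), or -0.16 without EV replicate 3.

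*ung-1*, the uracil glycosylase, was the gene with the lowest fold change of the 9. It had 24.6, 20.3 and 14.3 CPM in *pri-1* RNAi embryos, against 33.1, 32.5 and 29.7 CPM in EV embryos. Every *pri-1* RNAi library was below every EV library, and the means were 19.7 ± 5.19 CPM in *pri-1* RNAi and 31.8 ± 1.82 CPM in EV embryos (SD, n = 3 each). A log2 fold change of -0.71 (SE 0.29, interval -1.38 to -0.04) did not pass the threshold after adjustment (adjusted p = 0.111 from limma, and p = 0.1 from the exact permutation test). It missed the threshold in each of the 14 other fits as well, with values from -0.88 to -0.46. With trimmed-mean scaling the groups also stayed apart, at 21.3, 21.8 and 14.2 in *pri-1* RNAi and 31.2, 25.04 and 44.3 in EV embryos.

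Across libraries most of the 9 genes shared their highest *pri-1* RNAi and lowest EV library, and they differed in full order and in spread. In 8 of them the highest *pri-1* RNAi library was replicate 1, or in all but *mlh-1*, beside 57.4% of all tested genes. In the same 8 genes the lowest EV library was replicate 3, beside 70.6% of tested genes. The full order of EV replicate 2 over 1 over 3 was seen in *msh-6*, *exo-1*, *xpc-1*, *xpa-1* and *ercc-1*, 5 of 9 genes, where 55.9% of all tested genes had it. For these 5 genes EV replicate 2 exceeded EV replicate 3 by 2.35-fold to 5.77-fold. In *csb-1*, *mlh-1* and *ung-1*, by contrast, the EV libraries were within 1.26-fold of each other. The spread on the log2 scale was larger in EV than in *pri-1* RNAi libraries for 7 of the 9 genes, with median SDs of 0.42 in *pri-1* RNAi and 0.59 in EV embryos, and for 70.1% of all tested genes (medians 0.29 in *pri-1* RNAi and 0.45 in EV). The exceptions were *csb-1*, with 0.54 in *pri-1* RNAi and 0.07 in EV embryos, and *ung-1*, with 0.39 in *pri-1* RNAi and 0.08 in EV. Of the 36 ratios between pairs of the 9 genes, 18 did not overlap between the groups, near the 50.7% of all pairs of tested genes.

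**Figure D3:**
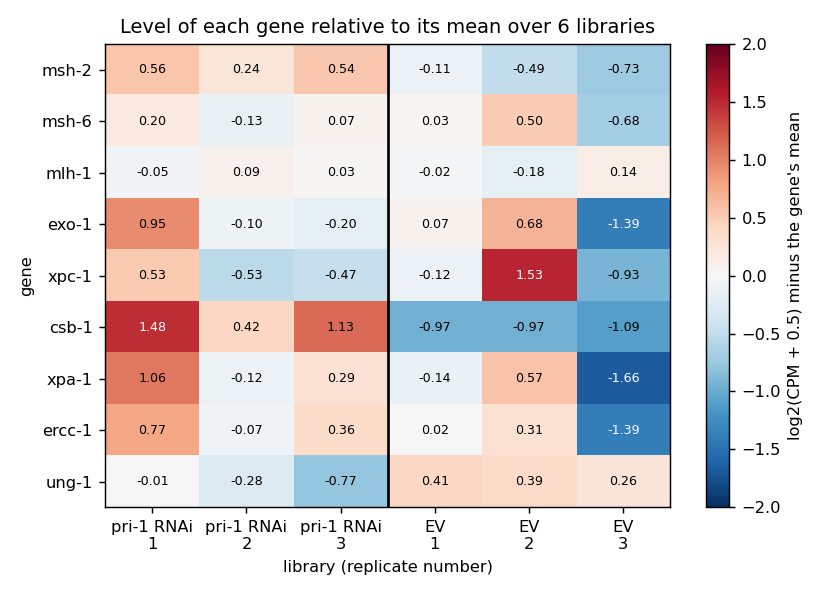
Log2(CPM + 0.5) of each of the 9 genes in each library minus the mean of that gene over the 6 libraries, with *pri-1* RNAi libraries left of the line and EV libraries right of it. *csb-1* was above its mean in each *pri-1* RNAi library (0.42 to 1.48) and below it in each EV library (-1.09 to -0.97), while *exo-1*, *xpa-1* and *ercc-1* were lowest in EV replicate 3 (-1.66 to -1.39).

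To compare genes with each other, CPM were divided by the exon length of the gene in kb. On this scale *xpa-1* had the highest mean in both groups, with 54.1 ± 23.4 CPM per kb in *pri-1* RNAi and 34.5 ± 22.6 in EV embryos (SD, n = 3 each, as for the next values). *csb-1* was next in *pri-1* RNAi embryos with 30.5 ± 10.6 CPM per kb, against 7.10 ± 0.37 in EV embryos, where *ung-1* (31.4 ± 1.80) and *mlh-1* (10.4 ± 1.18) stood above it in every library. The values of *xpa-1* and *ung-1* overlapped in EV embryos. In *pri-1* RNAi embryos *ung-1* had 19.5 ± 5.13 and *mlh-1* had 10.7 ± 0.53 CPM per kb. Within each *pri-1* RNAi library *xpa-1* stood above *csb-1*, while the order of *csb-1* and *ung-1* differed between these libraries. *ercc-1* had 10.8 ± 3.25 CPM per kb in *pri-1* RNAi and 7.004 ± 3.80 in EV embryos. The mismatch sensors were low, with 5.69 ± 0.71 in *pri-1* RNAi and 3.02 ± 0.70 in EV embryos for *msh-2*, and 3.67 ± 0.42 in *pri-1* RNAi and 3.61 ± 1.45 in EV embryos for *msh-6*. *msh-2* was above *msh-6* in each *pri-1* RNAi library, and the library values of both overlapped in EV embryos. In the same units *xpc-1* (3.46 ± 1.59 in *pri-1* RNAi, 5.31 ± 4.75 in EV) and *exo-1* (2.56 ± 1.33 in *pri-1* RNAi, 2.04 ± 1.36 in EV) overlapped with *msh-6* in both groups.

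The other genes of these pathways were described with lists written from gene names. Together the lists held 28 measured genes, of which 4 were higher and 0 lower at an adjusted p-value under 0.05, with a median log2 fold change of 0.35 beside -0.01 for all tested genes. A share of 4 in 28 is below the 17.3% of all tested genes that were called higher. Of the other nucleotide excision repair genes, 2 of 18 rose, *rad-23* and *rpa-2*. *rad-23*, whose yeast and mammalian counterparts bind XPC and carry ubiquitinated proteins to the proteasome, had 399, 282 and 380.1 CPM in *pri-1* RNAi and 175, 145 and 187 CPM in EV embryos (log2 fold change 1.06, SE 0.22, adjusted p = 0.0114 from limma). *rpa-2*, a subunit of the protein that covers single-stranded DNA in replication and repair, had 329, 295 and 345 CPM in *pri-1* RNAi and 170.2, 184 and 216 CPM in EV embryos (log2 fold change 0.77, SE 0.19, adjusted p = 0.0228 from limma).

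Of the other base excision repair genes, 2 of 9 rose, beside 17.3% of all tested genes that were called higher. *pcn-1*, the gene of the sliding clamp PCNA, had 482, 330.2 and 434 CPM in *pri-1* RNAi and 188, 127 and 193 CPM in EV embryos (log2 fold change 1.3004, SE 0.25, adjusted p = 0.00834 from limma). *dut-1*, the dUTPase that keeps uracil out of newly made DNA, had 73.6, 43.9 and 54.3 CPM in *pri-1* RNAi and 31.5, 27.2 and 21.6 CPM in EV embryos (log2 fold change 1.07, SE 0.29, adjusted p = 0.0292 from limma). *dut-1* and *ung-1*, which both limit uracil in DNA, had log2 fold changes of opposite sign, 1.07 and -0.71. That of *ung-1* did not pass the threshold (adjusted p = 0.111 from limma). None of the 2 genes that were listed by name under mismatch repair passed. These were *him-14* and *msh-5*, which encode a meiotic MutS dimer, with log2 fold changes of 0.33 and 0.41. The calls of the 4 listed genes that rose changed when single libraries were left out, while their log2 fold changes stayed positive. None of them passed without *pri-1* RNAi replicate 3, when the log2 fold changes were 1.00 for *rad-23*, 0.72 for *rpa-2*, 1.26 for *pcn-1* and 1.09 for *dut-1*. In that fit the calls over all tested genes also fell, from 2564 to 1437 higher and from 1471 to 273 lower. Without EV replicate 1, and likewise without *pri-1* RNAi replicate 1, *rad-23* and *pcn-1* passed and the other 2 did not (*rpa-2* 0.69 and 0.75, *dut-1* 1.19 and 0.87), while 6 listed genes passed without EV replicate 2. With trimmed-mean scaling *rad-23* (0.98) and *rpa-2* (0.69) did not pass, nor with median centring (1.27 and 0.98), and *rpa-1* passed with both.

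**Figure D4:**
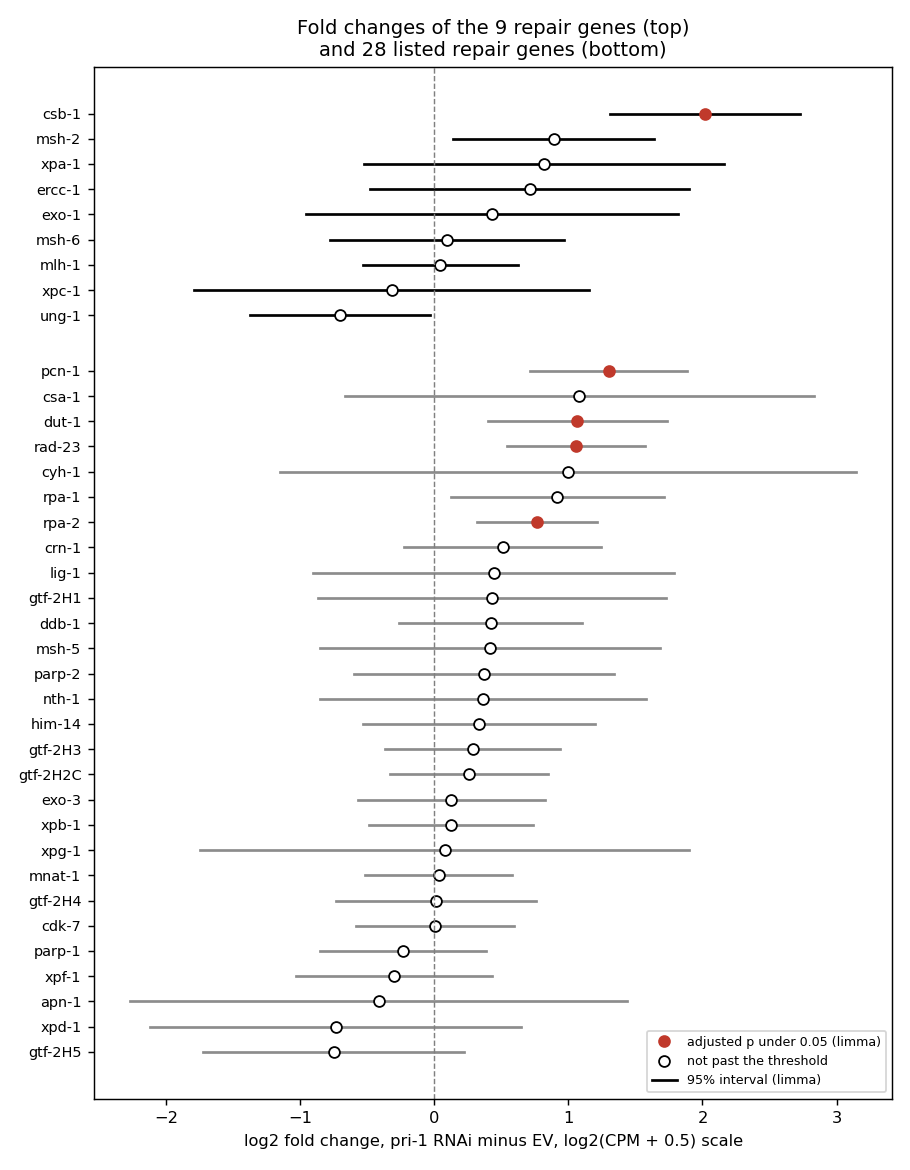
Log2 fold change (*pri-1* RNAi minus EV, log2(CPM + 0.5) scale) with its 95% interval from limma for the 9 genes (top) and the 28 other listed repair genes (bottom). Filled points passed an adjusted p-value of 0.05. *csb-1* at 2.02 was the 1 filled point of the 9, and *pcn-1*, *dut-1*, *rad-23* and *rpa-2* were the filled points of the lists.

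RNAs that mark tissues and stages were read beside these results, where 27.3% of all tested genes were called in either direction. Of 7 genes of the epidermis and cuticle, 6 fell and 1 rose, with sums of 2604 to 6653 CPM in *pri-1* RNAi and 8782 to 15054 CPM in EV libraries. Of 10 RNAs of the early embryo and the mother, 2 rose (*mex-3* and *oma-1*) and 1 fell (*nos-2*), a share near the background, and the log2 fold changes of *mex-6* and *spn-4* were -0.13 and -0.21. Their summed level was 254 to 379 CPM in *pri-1* RNAi and 78.9 to 193 CPM in EV libraries, and none of the 10 was at 0 in any library. This separation came from *mex-3*, which encodes an RNA-binding protein of early embryos and had 233, 153 and 233 CPM in *pri-1* RNAi and 43.9, 30.9 and 29.3 CPM in EV embryos. Without *mex-3* the sums were 146, 101 and 118 CPM in *pri-1* RNAi and 149, 48 and 57 CPM in EV embryos, and the groups overlapped. Of 5 germline granule genes, *glh-1* and *glh-4* rose, with sums of 152 to 191 CPM in *pri-1* RNAi and 58.9 to 99.9 CPM in EV libraries. Of 8 muscle genes 2 fell (*mup-2* and *pat-10*), where 9.94% of all tested genes were called lower. All 8 had log2 fold changes below 0 (median -0.66), and 3 were lower without overlap, beside 19.8% of tested genes. Their sums were 3072 to 6537 CPM in *pri-1* RNAi and 5863 to 10374 CPM in EV libraries. Of 5 intestine genes, 0 passed the threshold by limma and 0 had an unadjusted p-value under 0.05, with sums of 659 to 1331 CPM in *pri-1* RNAi and 826 to 1477 CPM in EV libraries. The part of embryo make-up in the rise of *csb-1* and of the 4 listed genes was not tested.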

How the data were processed

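RNA-seq libraries of eggs (3 *pri-1* RNAi, 3 EV) were analysed. The authors trimmed reads with Trimmomatic 0.36, assigned them with Salmon 1.4.0 to the Ensembl transcriptome of WBcel235, summed them into genes with tximport and deposited CPM, which add up to 1000000 in each library. Salmon estimates reads of similar sequences, and the library type was detected by Salmon from a strand-specific kit. No count test was run: low CPM were whole multiples of a step (within 0.1 steps, up to 20 steps) in 94.8% to 96.2% of cases, and mostly even ones.

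limma 3.58.1 in R 4.3.3 (lmFit, eBayes with trend) was fitted to log2(CPM + 0.5) without covariates. It took the 14801 genes that reached 0.5 CPM in 3 or more libraries, p-values were adjusted over them by Benjamini-Hochberg, and the threshold was 0.05. Exact two-sided permutation tests of 3 against 3 libraries used SciPy 1.17.1. Gene IDs and coordinates came from Ensembl release 115, which holds 95.8% of the names. *gtf-2H4* was matched through its sequence name in RefSeq. The 9 genes and all lists were chosen with earlier results of these data known. Planned for naming were the 9 genes, *pri-1*, the partners *xpf-1* and *csa-1*, listed repair genes past the threshold, and up to 2 markers per list with the highest level. The markers with the highest level were not named for the muscle, cuticle, intestine and adult yolk lists. Other genes were named after their values were seen, among them markers past the threshold. The planned ratio to *pms-2* was not analysed here, and sequences were not used here. Alternatives were pseudocounts of 0.1 and 1, no filter, trimmed-mean scaling, median centring, quantile normalization, 2 blocks and each library left out.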

Additional observations from a re-analysis of the deposited data

How the results depend on the processing

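*csb-1* passed in all 14 alternative fits (adjusted p of at most 0.026 by limma), and no gene of the 9 was called lower in any. The number of the 9 genes called higher, 1 as reported, was 2 with median centring and 2 with quantile normalization (*msh-2* added), and 4 with the library number as a block. With each library left out it was 1 to 1. That block, from numbers in the library names, rests on 2 pairs of libraries, the other libraries adding nothing to its fold changes, and it added *xpa-1* (1.37, adjusted p = 7.5e-05), *exo-1* (1.08, 0.0454) and *ercc-1* (1.04, 0.0462), and *xpc-1* turned to 0.52. *mlh-1* turned to -0.036 with it and to -0.032 with trimmed-mean scaling. Without single libraries *msh-6* had a range from -0.22 to 0.37, *mlh-1* from -0.035 to 0.13, *exo-1* from -0.16 to 0.87 and *xpc-1* from -0.86 to 0.37. Of the listed repair genes, 12 were higher with the library number block, 0 to 6 were higher and 0 to 1 lower (*gtf-2H5*) with a library left out. Over all genes, 4159 were higher with that block and 2552 lower with quantile normalization, and 1437 to 2853 were higher and 273 to 2993 lower with a library left out, with the lowest counts (1437 and 273) without *pri-1* RNAi replicate 3, 373 lower without EV replicate 1, 465 lower without *pri-1* RNAi replicate 1 and 2993 lower without EV replicate 3. The share of higher genes among those called was 63.5% as reported and 49.2% with quantile normalization. Median centring moved the median log2 fold change of all genes by 0.21.

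With the replicate number of the titles as a block, *csb-1* passed (2.02, adjusted p = 0.0081 by limma), 2110 genes were higher and 1043 lower, and of the listed genes *rpa-2* was lost (0.77, adjusted p = 0.0554). Deviations from the group means correlated across genes at 0.04, -0.32 and 0.46 for replicate numbers 1, 2 and 3. For the 2 pairs that share a library number they correlated at 0.04 and 0.37. Deviations of 3 libraries cancel out within a group, so these correlations depend on each other and cannot settle whether libraries were paired. The 3 ratios kept their sign in all 8 alternatives each, with ranges with a library left out from -0.97 to -0.50 (*msh-6* to *msh-2*), 0.70 to 1.18 (*ercc-1* to *xpf-1*) and 1.67 to 2.84 (*csb-1* to *xpc-1*). Such designs cannot give p-values under 0.05. The cause of these changes was not tested. Count tests on reads were not run, since even multiples of the step were more frequent than odd ones. The spread of 3 libraries limits what can be seen, since intervals of *msh-2*, *exo-1*, *xpc-1*, *xpa-1*, *ercc-1* and *ung-1* include a 2-fold change.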

Other observations

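The remaining marker lists were read only to describe the embryos. Of 8 neuron genes, *snb-1* rose and *rab-3* and *snt-1* fell, and 7 of the 8 had log2 fold changes below 0 (median -0.63). The summed level was 1046 to 1298 CPM in *pri-1* RNAi and 954 to 970 CPM in EV libraries. Its higher value in *pri-1* RNAi came from *snb-1*, which had 829, 854 and 1040 CPM in *pri-1* RNAi and 482, 422 and 522 CPM in EV embryos. Sperm genes were low, with sums of 12.7 to 28.3 CPM in *pri-1* RNAi and 1.18 to 2.94 CPM in EV libraries. The 3 of 6 that were tested (*fer-1*, *spe-9* and *gsp-4*) rose. *fer-1*, which is needed for sperm membrane fusion, had 22.03, 9.24 and 14.6 CPM in *pri-1* RNAi and 0.953, 1.19 and 0.339 CPM in EV embryos. Adult yolk genes, of which 0 of 6 passed the threshold by limma and 0 had an unadjusted p-value under 0.05, had sums of 21.05, 16.7 and 61.3 CPM in *pri-1* RNAi and 782, 13.03 and 103 CPM in EV embryos, so that EV replicate 1 held most of this RNA. Of the cuticle list, *dpy-8*, named after its value was seen, rose (2.53, 2.77 and 3.88 CPM in *pri-1* RNAi, 0.570, 0.549 and 0.385 CPM in EV embryos) while the other 6 fell.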
